A study of Mus musculus with 28 samples.

Results

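The phagocyte NADPH oxidase was followed through 5 genes, Cybb, Cyba, Ncf1, Ncf4 and Rac2, which were picked by name from the 55450 genes of the RNA-seq table. All 5 were present and all 5 passed the filter on low values. RNA-seq was done on C10 cells, a Pre-B line derived from HAFTL cells that carries a CEBPalpha-ER transgene, a fusion of rat C/EBPα with the hormone-binding part of the estrogen receptor. Induction used 100 nM β-estradiol, 10 nM IL-3 and CSF-1, and cells were taken at 0h (uninduced), 1h, 12h and 48h, with 3 libraries labelled as biological replicates at each time point. All groups share the line and the transgene, no group lacks the transgene, and estradiol and both cytokines were added together, so their effects cannot be told apart. Promoter Capture Hi-C (PCHi-C), which lists the restriction fragments that each captured promoter touches, gave 1 list per time point, each merged from 2 replicates.

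The oxidase moves electrons from NADPH across a membrane to oxygen and so makes superoxide, with which phagocytes attack engulfed microbes. Its membrane core is a flavocytochrome of gp91phox (Cybb), which carries the electrons, and p22phox (Cyba), which holds gp91phox stable. The cytosolic subunits p47phox (Ncf1, the organizer) and p40phox (Ncf4, which binds a phagosomal lipid) join the core on activation, together with a Rac GTPase, of which Rac2 is the blood cell form. Loss of the core or of a cytosolic subunit causes chronic granulomatous disease.

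The table lists the genes as ENSMUSG00000015340 (Cybb), ENSMUSG00000006519 (Cyba), ENSMUSG00000015950 (Ncf1), ENSMUSG00000071715 (Ncf4) and ENSMUSG00000033220 (Rac2), and they lie apart on the genome (GRCm38). Cybb is at X:9435252-9487771 on the minus strand, Cyba at chr8:122424776-122432930 on the minus strand and Ncf1 at chr5:134220053-134229625 on the minus strand. Ncf4 at chr15:78244801-78262580 (plus strand) and Rac2 at chr15:78559167-78572783 (minus strand) share a chromosome and are 296.587 kb apart. The promoter windows of Cybb, Cyba and Ncf1, the 3 members with a window in the promoter set used, are shown. They run from 250 bases before to 50 bases after the RefSeq transcript start (GRCm38.p6). They lie at X:9469275-9469574, chr8:122432891-122433190 and chr5:134229576-134229875 and are written 5′ to 3′ on the minus strand, with matches to 3 searched motifs in capitals.
Cybb: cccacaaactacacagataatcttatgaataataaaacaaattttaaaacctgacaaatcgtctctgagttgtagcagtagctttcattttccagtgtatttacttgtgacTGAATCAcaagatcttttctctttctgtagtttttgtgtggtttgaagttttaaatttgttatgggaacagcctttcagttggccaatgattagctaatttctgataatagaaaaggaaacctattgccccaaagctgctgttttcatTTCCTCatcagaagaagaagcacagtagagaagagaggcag
Cyba: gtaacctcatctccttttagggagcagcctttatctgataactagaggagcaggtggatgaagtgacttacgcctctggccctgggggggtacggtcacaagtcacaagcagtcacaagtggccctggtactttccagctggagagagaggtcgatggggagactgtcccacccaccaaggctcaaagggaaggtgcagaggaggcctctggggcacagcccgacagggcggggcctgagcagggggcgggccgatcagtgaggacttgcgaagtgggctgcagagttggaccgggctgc
Ncf1: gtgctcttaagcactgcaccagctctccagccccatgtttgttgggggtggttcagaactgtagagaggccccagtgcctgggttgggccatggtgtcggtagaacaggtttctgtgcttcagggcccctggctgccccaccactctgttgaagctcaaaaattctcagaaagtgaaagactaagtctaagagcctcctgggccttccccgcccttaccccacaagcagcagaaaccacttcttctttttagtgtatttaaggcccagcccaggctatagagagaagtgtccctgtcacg
The motifs searched on both strands were TTGCNNAA (C/EBP), GAGGAA (PU.1) and TGANTCA (AP-1). The Cybb window held TGAATCA, which matches AP-1 on both strands, at -139 to -133 from the start, and TTCCTC, the opposite strand of the PU.1 motif, at 10 to 15 after it. No letters of the Cyba or Ncf1 window matched a motif, and no window held the C/EBP motif. Of 32851 promoters of the same length, 10.8% held the C/EBP motif, 28.3% the PU.1 motif and 7.81% the AP-1 motif. The promoter set used held no window for Ncf4 or Rac2.

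Levels are given as TPM, the abundance of a transcript relative to all transcripts of its library and per length, and changes as differences in log2(TPM + 0.1) from limma with their standard error (SE). An overlapping gene pair at a ribosomal RNA locus took 70.3% to 82.9% of the TPM of each library, and the median change of the 16415 genes tested against 0h was 0.59, 0.34 and -0.18 (log2) at 1h, 12h and 48h in turn. After median-of-ratios scaling, which sets the typical gene level between libraries, these medians were 0.021, 0.069 and 0.072. For the members, scaled values are given wherever they alter a direction or a call. For other genes they are given as counts per list and for some single genes, so a single call without a scaled value may depend on the scaling. TPM hold no record of read depth, and the read totals listed with the study were not used here. The share of the ribosomal pair was lowest in replicate 3 at each time point. Calls of members that changed when all 4 libraries of replicate 3 were left out, which leaves 2 a group, are named with their value. For the pairs of members only the number that still passed is given. Leaving out replicate 3 was chosen after the data were seen. Pre-B markers summed to between 262 and 298 TPM at 0h and between 16.0 and 24.7 at 48h, and 8 of 8 were lower at 48h, against 27.2% of all genes tested. Macrophage markers summed to between 3.65 and 5.11 TPM at 0h and between 191 and 269 at 48h. Of their 8 members tested, 7 were higher at 48h (15.9% of all genes tested). Cd14 and Msr1 were at 0 and Itgam and Fcgr1 at or below 0.07 TPM at 0h, so these passed the filter only through later libraries. For them a higher call was largely set by the filter, and the count cannot be compared with that share. The Pre-B marker Rag1 likewise passed only through its 0h libraries. Mrc1, the other macrophage marker tested, was not called at 48h and stayed at or below 0.81 TPM. It was lower at 12h than at 0h, also after scaling (-1.93, limma adjusted p = 0.00194). Adgre1, which encodes F4/80, was too low to be tested and stayed at or below 0.29 TPM in every library. In bulk RNA, fewer cells of a type and less RNA per cell cannot be told apart.

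Cybb rose within the first hour and was the one member called higher at 48h than at 12h. Its level was 2.98, 1.95 and 3.32 TPM in the 3 libraries of 0h, and 34.2, 37.8 and 28.8 TPM at 1h. It then reached 98.7, 92.0 and 105 TPM at 12h, and 134, 156 and 159 TPM at 48h. No library of one time point overlapped with those of another, and every step was upward. The log2 change against 0h was 3.59 ± 0.20 (SE, n = 3) at 1h, with a limma adjusted p of 1.60e-06. It grew to 5.14 at 12h (adjusted p = 2.03e-08) and 5.74 at 48h (adjusted p = 2.57e-09). The step from 12h to 48h was 0.60 ± 0.20 on the log2 scale (adjusted p = 0.0328). That call was lost without the mean-variance trend (adjusted p = 0.0651) and when any of 5 of the 12 libraries was left out, namely each 12h library and 48h replicates 2 and 3 (adjusted p up to 0.0914), and without replicate 3 (0.60, adjusted p = 0.0904). After median-of-ratios scaling the step was 1.35 (adjusted p = 0.000344).

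Cyba, whose product pairs with that of Cybb, was present from the start and moved later. Its level was 10.4, 12.2 and 13.7 TPM at 0h and 14.0, 14.1 and 13.8 TPM at 1h. At 12h it was 35.8, 38.9 and 54.6 TPM, and at 48h 31.1, 28.3 and 45.5 TPM. The 12h and 48h libraries overlapped with each other and lay above all earlier ones. The 1h change was 0.22 ± 0.21 (log2; adjusted p = 0.479), and its direction turned under scaling (-0.44, adjusted p = 0.185). At 12h the change against 0h was 1.81 (adjusted p = 7.98e-05), a 3.56-fold rise of the mean, and at 48h it was 1.50 (adjusted p = 0.000133). The difference between 48h and 12h was -0.31 (adjusted p = 0.292) and became 0.44 after scaling (adjusted p = 0.138), so which of the late time points was higher depended on the scaling. Cyba overlaps Gm20388 on the opposite strand, but they share 0 exon bases.

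Ncf1 rose from the lowest level of the 5 and had its highest level at 12h. It was at 0.38, 0.41 and 0.41 TPM at 0h and at 6.30, 5.27 and 4.61 TPM at 1h. The 12h libraries held 27.6, 26.7 and 43.0 TPM, and the 48h libraries 11, 11.7 and 13.5 TPM. The 4 time points did not overlap, and the 48h libraries fell between those of 1h and 12h. The log2 change against 0h was 3.45 ± 0.21 (SE, n = 3) at 1h (adjusted p = 2.68e-06). It was 5.99 at 12h and 4.60 at 48h (adjusted p = 7.90e-09 and 1.78e-08). From 12h to 48h it fell by 1.39 on the log2 scale (adjusted p = 0.000379). The fall was -0.64 after scaling (adjusted p = 0.00940) and held in all 24 fits made (adjusted p between 0.000221 and 0.0111). The size of the change from 0h depends on the 0.1 added to TPM, and at 12h was 4.54 with 1 added and 6.27 with 0.01 added. Ncf1 shares 408 of its 3663 exon bases with Gtf2ird2 on the opposite strand, which stayed between 0.66 and 2.43 TPM, and the kit does not mark strand.

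Ncf4 was already expressed in the Pre-B cells and moved little. Its level was 7.67, 5.49 and 7.72 TPM at 0h and 6.99, 7.25 and 5.10 TPM at 1h, so these groups overlapped. It was 12.8, 13.3 and 15.0 TPM at 12h, above all other libraries, and 10.4, 5.63 and 9.0 TPM at 48h. The change against 0h was 0.98 ± 0.24 at 12h (adjusted p = 0.0104), and neither -0.11 at 1h nor 0.23 at 48h passed the test (adjusted p = 0.771 and 0.490). The 12h call was lost in 3 of 24 fits, namely after median-of-ratios scaling (0.65, adjusted p = 0.0661), after rescaling without the 20 most abundant genes (0.78, adjusted p = 0.0566) and without replicate 3 (1.00, adjusted p = 0.0800). The 12h level was higher than that of 1h as TPM and after scaling (1.09, adjusted p = 0.00805, and 1.41, adjusted p = 0.00185) but not without replicate 3 (0.87, adjusted p = 0.115). The fall from 12h to 48h was -0.75 (adjusted p = 0.0311) and vanished after scaling (-0.012, adjusted p = 0.997). It passed in 14 of 24 fits and was also lost with quantile normalization, with rescaling, without the trend, with only the 6 libraries compared, without any 1 of the 3 libraries of 12h, without 48h replicate 2 and without replicate 3 (adjusted p between 0.0516 and 0.672).

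Rac2 ran the other way. It was the most abundant member in the Pre-B cells, at 85.2, 73.6 and 80.1 TPM at 0h, and was at 66.6, 52.5 and 62.9 TPM at 1h. At 12h the libraries held 59.9, 52.2 and 67.5 TPM, and at 48h 41.2, 33.9 and 49.6 TPM. Every later library lay below every 0h library, whereas the 1h and 12h libraries overlapped. Against 0h the change of -0.40 at 1h and that of -0.42 at 12h did not pass the test (adjusted p = 0.118 and 0.0981), and that of -0.95 ± 0.18 at 48h did (adjusted p = 0.000935). After scaling all 3 passed, and the 1h change became the largest (-1.06, -0.75 and -0.54 in the order of the time points, with adjusted p = 0.00241, 0.00579 and 0.0205). With quantile normalization the 48h change was -0.44 (adjusted p = 0.0606). Of 24 fits, the 1h change passed in 3 and the 12h change in 4. For 12h these included the fit with the replicate number in the model. The step from 12h to 48h was -0.54 (adjusted p = 0.0335) as TPM but 0.21 after scaling, so the time of the fall depended on the scaling. As TPM it was lost without 12h replicate 1 or 3 or 48h replicate 1 or 2 (adjusted p up to 0.120), and without replicate 3 (adjusted p = 0.0595).

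**Figure D1:**
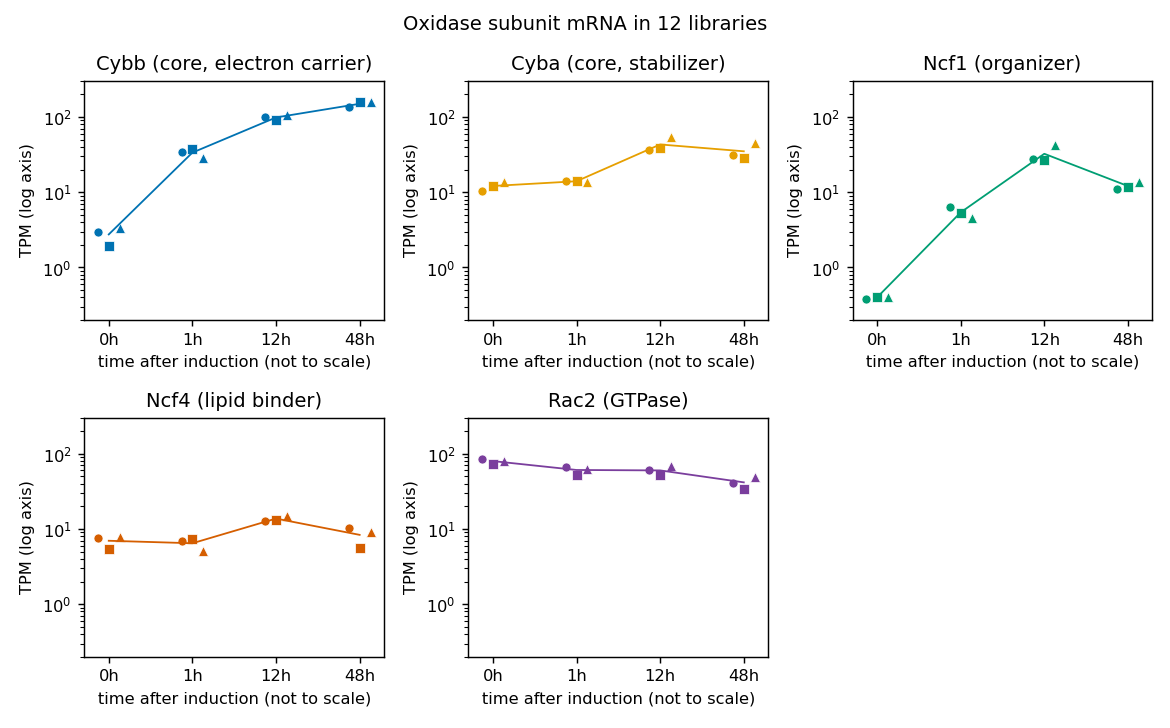
TPM (log axis) of the 5 members at 0h, 1h, 12h and 48h; each symbol is 1 library (circle, square and triangle for replicates 1, 2 and 3) and lines join the means. Cybb and Ncf1 rise between 0h and 1h, Cyba and Ncf4 lie higher at 12h than at 1h, and Rac2 starts at 73.6 to 85.2 TPM and lies lower at every later time point.

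Counted over the members, 2 of 5 were higher at 1h (Cybb and Ncf1), against 24.1% of all genes tested, and 0 were lower (1.41%). At 12h, 4 of 5 (all but Rac2; 3 without replicate 3) were higher (22.3% of all genes) and 0 lower (7.82%). At 48h, Cybb, Ncf1 and Cyba were higher (15.9% of all genes) and Rac2 lower (27.2%). The median change over the members was 0.22, 1.81 and 1.50 in that order, against 0.59, 0.34 and -0.18 over all genes tested. After scaling, Cybb and Ncf1 were higher at 1h (5.42% of all genes) and Rac2 lower (4.92%). Cyba joined the higher ones at 12h (16.0%) and 48h (24.5%), with Rac2 lower at both (14.5% and 22.0% of all genes). From 1h to 12h, 4 members (3 without replicate 3) were higher, against 6.98% of all genes, and 0 lower (15.0%), and the counts were equal after scaling (11.3% and 8.77%). From 12h to 48h, 1 member (0 without replicate 3) was higher (4.1% of all genes) and 3 lower (31.7%). After scaling Cybb was higher (10.5%) and Ncf1 lower (11.9%). The groups share the 0h libraries, so the comparisons with 0h are not independent of each other.

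**Figure D2:**
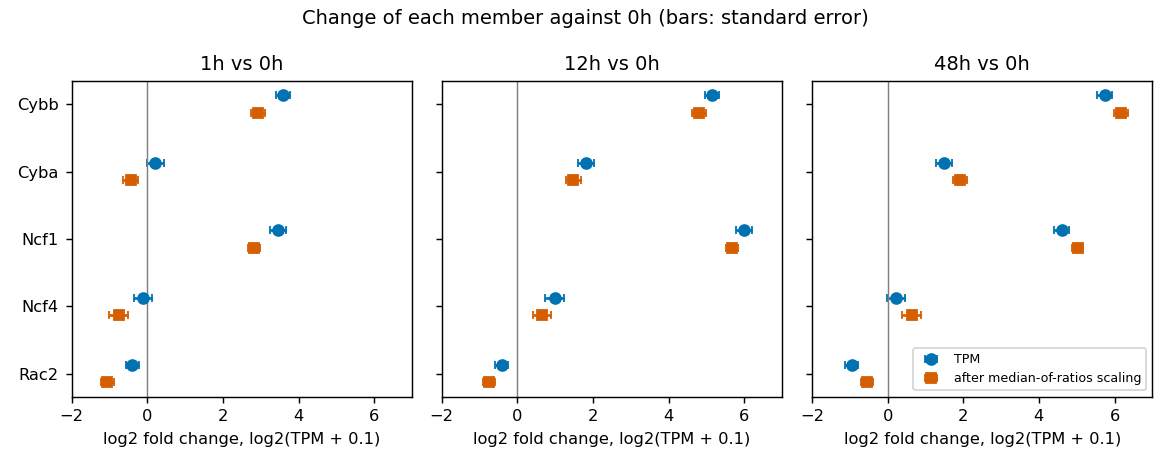
Log2 fold change of each member against 0h at 1h, 12h and 48h, from TPM (blue circles) and after median-of-ratios scaling (orange squares), with standard errors from limma. Cybb and Ncf1 are at 2.82 or more at every time point under both, whereas Cyba at 1h lies on either side of 0.

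The order of induction was then read as the share of the highest mean reached at each time point, from TPM and after median-of-ratios scaling. At 1h, Cybb had reached 22.5% of its 48h mean as TPM and 10.6% after scaling, and at 12h 65.8% and 39.3%. On the log2 scale the 1h level of Cybb stood for 62.5% of its rise, or 47.6% after scaling. Ncf1 had reached 16.6% of its 12h mean at 1h (13.4% after scaling), and 57.6% of its log2 rise (49.7%). Cyba had covered 12.0% of its log2 rise at 1h as TPM, whereas it lay below its 0h level after scaling. At 48h, Ncf1 was at 37.2% of its highest mean as TPM and 63.5% after scaling. Cyba and Ncf4 were at 81.1% and 60.8% of their 12h means as TPM, but had their highest means at 48h after scaling, where the 12h means were 72.8% and 96.5% of those. Rac2 was at 52.2% of its 0h mean at 48h as TPM and 69.3% after scaling. Cybb and Ncf1 were called higher from 1h on and Cyba from 12h on, in every one of the 24 fits, while Ncf4 was called at 12h only and not in all fits. The steps in between were not sampled.

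A ratio of 2 genes within a library is little touched by the scaling of that library, apart from the 0.1 added to each, so the change of the ratios over time was tested. This tests whether a ratio differed at any time point, not which subunit moved first. All 10 pairs of members changed their log2 ratio over the 4 time points (exact permutation test over the 369600 ways to assign 12 libraries, two-sided by construction as it sums squares; adjusted p over the 10 pairs from 0.000216 to 0.00487). The smallest p this test can give is 6.49e-05, which Cybb to Ncf4, Cybb to Rac2 and Ncf1 to Rac2 reached. Without replicate 3, 9 of 10 pairs passed, and which pair failed was not recorded. For single steps, an exact permutation test of 3 libraries against 3 cannot go below p = 0.1, so only sizes and overlap are given.

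The 2 subunits of the membrane core changed places. Cybb mRNA was below that of Cyba in every 0h library and above it in every later library, with a log2 ratio of -2.12 ± 0.41 (SD, n = 3) before induction and of 1.25 ± 0.18, 1.21 ± 0.26 and 2.12 ± 0.33 at the 3 later time points (exact permutation test, adjusted p = 0.000731). The ratio rose 10.3-fold in the first hour, changed by 1.03-fold between 1h and 12h, and 1.88-fold from 12h to 48h. Between 1h and 12h the mean rose 2.93-fold for Cybb and 3.08-fold for Cyba.

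Cybb and Ncf1, the pair that rose first, kept overlapping ratios in the first hour and then parted. Their log2 ratio was 2.48 ± 0.41 (SD, n = 3) at 0h and 2.62 ± 0.20 at 1h, with overlapping libraries. It fell to 1.63 ± 0.31 at 12h and rose to 3.62 ± 0.091 at 48h, outside the range of the other time points (exact permutation test, adjusted p = 0.000649). Cyba mRNA exceeded that of Ncf1 in all 12 libraries, and the log2 ratio narrowed from 4.60 to 1.37 in the first hour and to 0.42 by 12h, before it widened to 1.50 by 48h. Ncf1 passed Ncf4 between 1h (log2 ratio -0.25) and 12h (1.20), and was still above it in each 48h library (0.57 ± 0.48).

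The order of levels turned over with these ratios. At 0h it was Rac2, Cyba, Ncf4, Cybb and Ncf1, from high to low, with no overlap between neighbours. At 1h it was Rac2, Cybb, Cyba, Ncf4 and Ncf1, of which the last pair overlapped. At 12h Cybb led, Rac2 and Cyba overlapped, as did Cyba and Ncf1, and Ncf4 was lowest. At 48h Cybb led, Rac2 and Cyba overlapped again, and Ncf1 and Ncf4 followed without overlap. Overlap here means the ranges over the libraries of a time point. Within single libraries these pairs kept 1 order. Ncf4 was above Ncf1 in each 1h library, Rac2 above Cyba in each 12h and 48h library, and Cyba above Ncf1 in each 12h library.

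**Figure D3:**
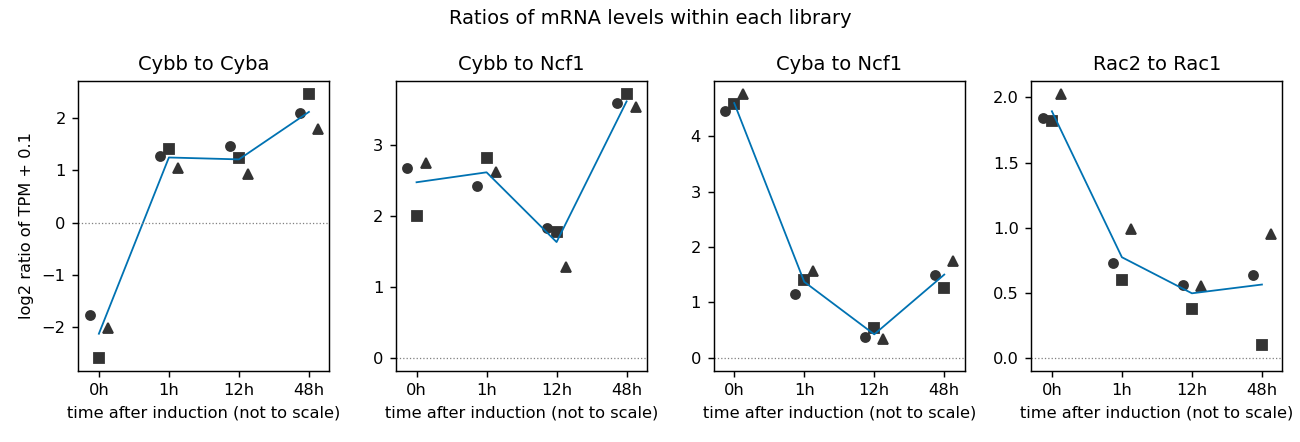
Log2 ratio of TPM + 0.1 within each library at 0h, 1h, 12h and 48h for Cybb to Cyba, Cybb to Ncf1, Cyba to Ncf1 and Rac2 to Rac1; symbols are the 3 replicates and lines join the means. The Cybb to Cyba ratio crosses 0 between 0h and 1h, and the Cybb to Ncf1 ratio is lowest at 12h and highest at 48h.

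Partner genes of the complex were set beside the members. Rac1, the widely expressed relative that can also serve an oxidase, was at 23.8, 20.8 and 19.6 TPM at 0h and 40.7, 40.2 and 46.0 TPM at 12h (log2 change 0.98, adjusted p = 0.000602). As TPM, Rac1 was also called higher at 1h but not at 48h. After scaling the 1h change was 0.066 (limma adjusted p = 0.791) and the 48h change 0.79 (limma adjusted p = 0.000240). Rac2 mRNA remained above that of Rac1 in all 12 libraries, but the log2 ratio narrowed from 1.89 ± 0.11 (SD, n = 3) before induction to 0.77 within the first hour, and was 0.49 and 0.56 ± 0.43 at the last 2 time points (exact permutation p = 0.00857; p = 0.0762 without replicate 3). Cybc1, a chaperone of the core, lay between 3.48 and 9.81 TPM with no call at any time point against 0h (adjusted p from 0.596 to 0.876). Nrros, which lowers gp91phox protein, fell at 1h from a mean of 8.18 to 2.69 TPM (-1.57, adjusted p = 0.00404) and was at 11.8 TPM at 12h.

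Cybb was the one catalytic subunit of its family at a substantial level. Nox4 ranged from means of 0.35 TPM at 0h to 0.78 TPM at 1h, and Nox1 was at 0.12 TPM or below in mean. Nox3, Noxa1, Duox2 and Duoxa2 were listed at 0 in all libraries, and Duox1 and Duoxa1 at means of 0.02 TPM or below. Of the 8 genes tested among 16 other family and assembly genes, 2, 1 and 1 were higher at the successive time points after 0h (against 24.1%, 22.3% and 15.9% of all genes), and 1, 0 and 0 were lower (1.41%, 7.82% and 27.2%). The count at 1h was thus close to the share over all genes. After scaling 0, 1 and 3 were higher (5.42%, 16.0% and 24.5% of all genes) and 1, 0 and 0 lower (4.92%, 14.5% and 22.0%). The same shares apply to the lists that follow. The list medians were 0.15, 0.41 and 0.18, against 0.59, 0.34 and -0.18 over all genes tested.

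Genes that act upstream of assembly were more often called higher than all genes at 1h and 12h as TPM. Of 21 tested (24 listed), 10, 14 and 5 were higher at the successive time points (24.1%, 22.3% and 15.9% of all genes), and 1, 0 and 2 were lower (1.41%, 7.82% and 27.2%), with medians of 0.58, 0.73 and 0.070. After scaling 2, 9 and 10 were higher and 5, 1 and 2 lower, with the most calls at 48h, so the time of most rises depended on the scaling. Prkcd, a kinase that phosphorylates p47phox, rose from a mean of 4.31 TPM to 29.1 by 12h and 23.5 by 48h (2.73 and 2.44, adjusted p = 2.44e-06 and 1.84e-06). After scaling its mean was higher at 48h (33.6) than at 12h (24.6), a log2 change of 0.45 (limma adjusted p = 0.0236). Arhgdib, which holds Rac in the cytosol, had its highest mean at 12h, at 123 TPM (1.28, adjusted p = 6.54e-05). Vav1, a Rac exchange factor, was highest at 1h, with a mean of 17.6 TPM against 5.93 at 0h (1.56, adjusted p = 0.000651). Hvcn1, the proton channel that balances the charge the oxidase moves, was lowest at 1h (0.90 against 3.15 TPM; -1.71, adjusted p = 0.000450).

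Of 10 transcription factor and cofactor genes tested from a list known at oxidase promoters, 3, 5 and 5 were higher in time order (24.1%, 22.3% and 15.9% of all genes) and 1, 1 and 3 were lower (1.41%, 7.82% and 27.2%), with medians of 0.55, 0.57 and 0.15. The 3 higher at 1h and the 3 lower at 48h were close to the share over all genes. After scaling 1, 3 and 5 were higher and 2, 2 and 1 lower. Spi1, which encodes PU.1, rose from a mean of 7.81 TPM to 28.7 within 1h and to 36.3 by 12h (1.86 and 2.20, adjusted p = 6.13e-05 and 5.39e-06). Cebpb rose to means of 16.3 TPM at 12h and 16.4 at 48h from 2.70 at 0h (2.52 and 2.43, adjusted p = 0.000127 and 6.58e-05). Irf1, an interferon-response factor, was late, with a mean of 1.22 TPM in uninduced cells, 2.64 by 12h and 10.98 by 48h (last change 3.09, adjusted p = 9.64e-07). Irf8 fell at 1h from 18.9 to 8.09 TPM (-1.23, adjusted p = 0.00739). Cebpa reads of the rat transgene and the mouse gene were not told apart here. The authors split them by sequence variants and reported that the mouse gene was not expressed at any time point. Cebpa is among the 3 genes lower at 48h as TPM, and was not called after scaling. Cebpe, Hoxa9 and Hoxa10 were listed at 0 in all libraries.

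The enzymes that make NADPH, the electron donor of the oxidase, divided. G6pdx and Pgd, the dehydrogenases of the pentose phosphate pathway, had their highest levels at 12h, like Ncf1. G6pdx had means of 3.21, 13.3, 55.6 and 25.1 TPM from 0h to 48h, and Pgd of 6.96, 10.9, 66.9 and 21.7 TPM. Their changes at 12h were 4.12 (adjusted p = 4.67e-07) and 3.23 (adjusted p = 5.04e-07). After scaling both means were still highest at 12h. The fall from 12h to 48h was then called for Pgd (-0.88, limma adjusted p = 0.00253) but not for G6pdx (-0.40, limma adjusted p = 0.255). The lactonase Pgls between them in the pathway was lower at 48h (13.1 to 2.15 TPM; -2.72, adjusted p = 7.00e-05), as were Mthfd1, Me2 and Idh2, and before scaling Nadk. Of 9 genes tested, 2, 3 and 3 were higher in time order (24.1%, 22.3% and 15.9% of all genes) and 0, 2 and 5 were lower (1.41%, 7.82% and 27.2%), with medians of 0.31, 0.33 and -0.74. The 2 higher at 1h were close to the share over all genes. After scaling 1, 3 and 3 were higher and 0, 4 and 4 lower.

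Genes that remove superoxide and peroxide were mostly lower at 48h. Of 17 tested, 5, 3 and 1 were higher in time order (24.1%, 22.3% and 15.9% of all genes) and 0, 1 and 12 were lower (1.41%, 7.82% and 27.2%), with a median of -1.25 at 48h against -0.18 over all genes tested. The counts higher at 1h and 12h were close to the shares over all genes. After scaling 3, 3 and 2 were higher and 4, 4 and 11 lower, so most of the lower calls at 1h and 12h were made only after scaling. Superoxide dismutase Sod1 went from a mean of 29.1 TPM at 0h to 8.63 at 48h (-1.79, adjusted p = 0.000102), and catalase (Cat) from 24.2 to 9.98 TPM (-1.29, adjusted p = 4.25e-05). Prdx5, a peroxiredoxin, was the 1 gene higher at 48h as TPM, at a mean of 33.3 TPM from 5.98 (2.42, adjusted p = 1.56e-05). After scaling Gpx4 was called higher too (0.56, limma adjusted p = 0.0362). Txnrd1, which recharges thioredoxin from NADPH, rose at 1h from 7.67 to 55.1 TPM (2.83, adjusted p = 1.02e-05) and was at 3.13 TPM at 48h. Gclc and Gclm, which make glutathione precursor, were also highest at 1h (2.02 and 1.71, adjusted p = 0.000109 and 0.000486). Mpo, the granule peroxidase that uses the peroxide, was listed at 0 in all libraries.

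**Figure D4:**
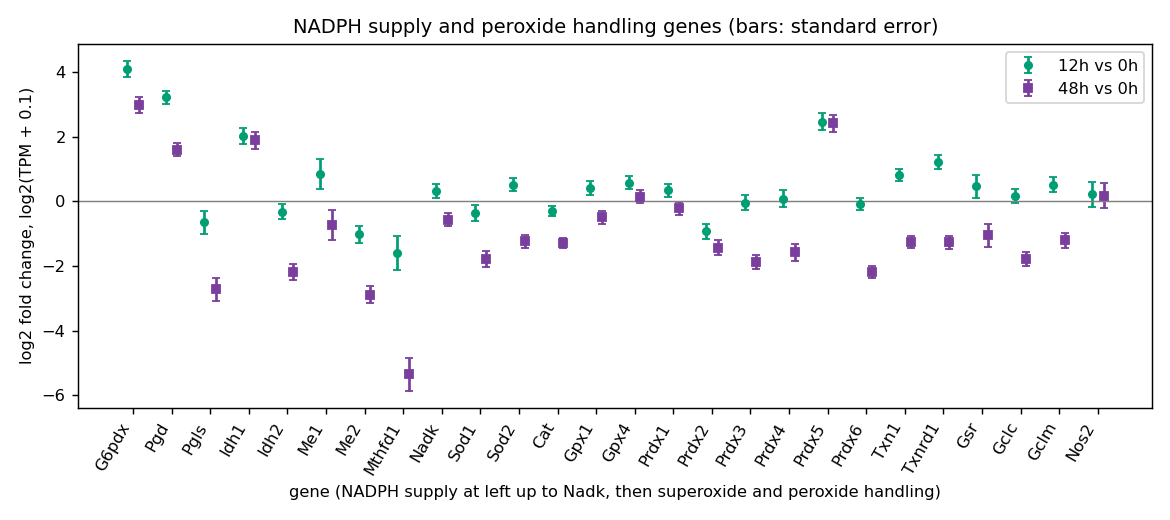
Log2 fold change with standard error (limma, log2(TPM + 0.1)) of the NADPH supply and the superoxide and peroxide handling genes tested, at 12h (green circles) and 48h (purple squares) against 0h. G6pdx, Pgd, Idh1 and Prdx5 lie above 0 at both time points, and most handling genes lie below 0 at 48h.

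Neutrophils also express all members, so their granule genes were checked. The 10 granule genes summed to between 0 and 0.54 TPM at 0h, 17.7 and 23.9 at 12h, and 32.8 and 45.1 at 48h. Only 4 of the 10 passed the filter on low values and were tested. All 4 were higher at 12h (22.3% of all genes). Camp, Mmp8 and S100a8 were at or below 0.18 TPM at 0h and passed the filter only through later libraries. Their calls at 12h and 48h were thus largely set by the filter, so the counts cannot be compared with the shares over all genes. Their means at 12h were 8.69 TPM for Camp, 6.93 for Mmp8, 2.36 for Prtn3 and 1.78 for S100a8. At 48h Mmp8, S100a8 and Camp were higher than at 0h, against 15.9% of all genes. After scaling Prtn3 was higher too (2.13, limma adjusted p = 0.0198), against 24.5% of all genes. Nearly all of the 48h sum came from Mmp8 (mean 35.9 TPM), while Mpo, Elane, Ltf and S100a9 were at 0 in all 48h libraries. Eosinophil genes summed to at most 0.12 TPM and T and NK genes to 0 in every library. The part of neutrophil-like cells in the members' values was not tested.

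The genes whose pattern was most like each member were ranked by Pearson's r of log2(TPM + 0.1) over the 12 libraries among 8261 genes. This is a description, since the libraries fall into 4 time points. For Cybb they were Rin2 (r = 0.993), Sirpa (0.990), a receptor that restrains phagocytes, and Gsap (0.988). For Ncf1 they were Fosl2 (0.987), an AP-1 subunit, G6pdx (0.984) and Abhd5 (0.984), and for Cyba Snx20 (0.984), Plxnd1 (0.978) and Anxa6 (0.978). Likeness was weaker for Rac2, with Arpc5l (0.930), Pde10a (0.925) and Cep170b (0.920), and for Ncf4, with Anxa3 (0.889), Samd11 (0.884) and Nfic (0.878). Between the members themselves r ran from 0.945 for Cybb with Ncf1 to -0.78 for Cybb with Rac2.

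Promoter contacts were a readout that the choice of genes did not use. Each merged list has no replicate error, so counts of contacts are given with no test. Over 18175 captured fragments (baits) the median was 4 contacts at each time point, with an upper quartile of 11 or 12. The bait of Ncf1 had 14, 36, 25 and 22 contacts at the successive time points, and 78.5%, 95.6%, 91.8% and 88.1% of baits had fewer. The bait of Ncf4 had 10, 9, 10 and 9 contacts, and that of Cyba 1, 3, 7 and 2. The Rac2 bait had 3, 2, 2 and 0. The Cybb bait had 1 contact at 0h and none later, but of 5 annotated Cybb transcript starts only the upstream one lies on it, and the start of the promoter window above does not.

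Ncf1 gained most of its contacts by 1h, the time of its first rise in mRNA. Of the 36 at 1h, 25 were not listed at 0h, 12 of these were still listed at 12h, and 7 at both 12h and 48h, whereas 10 were listed at 1h only. The share of 1h contacts not listed at 0h was not taken over all baits, so these counts cannot be called particular to Ncf1. Of the 14 contacts at 0h, 11 were also listed at 1h. Most partners lay toward higher coordinates, 31 of 36 at 1h, and many fell on Gtf2i (chr5:134237834-134314760), the neighbouring gene for a general transcription factor. Contacts on Gtf2i numbered 5, 18, 15 and 13 over the time points. The bait had the most contacts at 1h, whereas Ncf1 mRNA was highest at 12h. None of the 14 contacts at 0h had a score of 10 or more.

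On chromosome 15, the promoters of Ncf4 and Rac2 were listed as touching each other across 329.045 kb at 0h (score 7.8) and at 12h, and not at 1h or 48h. Both baits also touched that of Ift27, Ncf4 at 0h, 1h and 12h and Rac2 at 1h and 12h. Both touched that of C1qtnf6, Ncf4 at every time point and Rac2 at 0h only. Ncf4 contacts within Csf2rb, which encodes the common chain of the IL-3 receptor, numbered 1, 1, 0 and 3 from 0h to 48h. Of the 9 contacts of Ncf4 at 48h, 4 were also listed at 0h, and of the 22 of Ncf1, 12 were. Over all baits 55.1% of 48h contacts were also listed at 0h. With partners within 10 kb of a 0h partner counted, it was 6 of 9 for Ncf4 and 18 of 22 for Ncf1. No such share was taken over all baits. A contact missing from a list fell below the threshold of that list, which does not show that it was absent.

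**Figure D5:**
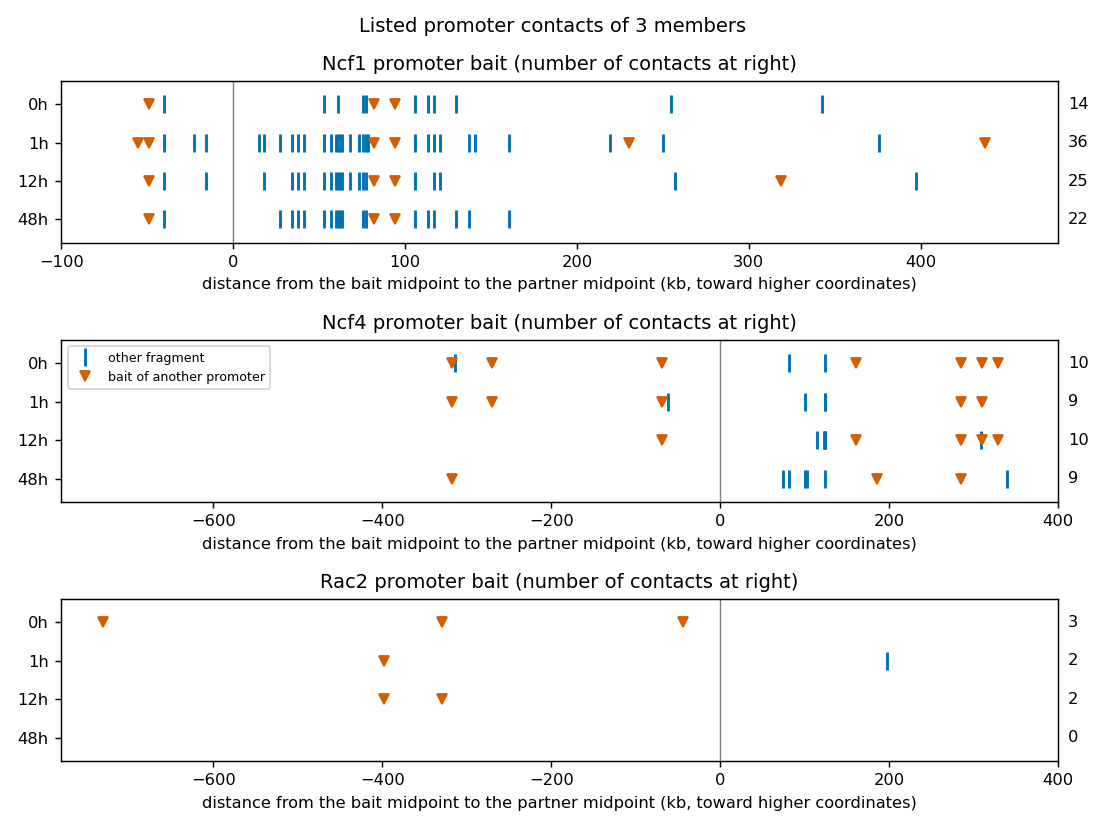
Distance in kb from the bait midpoint to each listed partner fragment for the Ncf1, Ncf4 and Rac2 baits, 1 row per time point; bars are other fragments, triangles are baits of another promoter and the number of contacts stands at the right. The Ncf1 rows fill between 0h (14 contacts) and 1h (36), mostly within about 160 kb toward higher coordinates, and the triangle at 329.045 kb for Ncf4 (its Rac2 contact) appears at 0h and 12h.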

How the data were processed

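RNA-seq of 12 libraries (3 per time point) and PCHi-C lists of 4 time points were used. The authors trimmed reads with Trim Galore 0.6.2, mapped them to mm10 with HISAT2 2.1.0 and deposited TPM from RSEM, after merging technical replicates. They tested counts with DESeq2, and counts were not used here. PCHi-C reads were mapped to mm10, and interactions in the deposited list of 0h carry a CHiCAGO score (5 or more). Those of the later time points carry whole numbers whose unit is not given in the sources used here, so only presence in a list was used. TPM hold no depth, and the read totals listed with the study were not used here, so precision rests on the 3 replicates.

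The 16415 genes whose mean was 0.1 TPM or more were fitted in R 4.3.3 by limma 3.58.1 (eBayes with trend) on log2(TPM + 0.1), all 12 libraries in 1 model, with Benjamini-Hochberg adjustment over all genes and a threshold of 0.05. The fit was tested on simulated data. Ratios were tested by exact permutation in Python 3.11.15 (scipy 1.17.1). Alternatives varied the pseudocount, filter, scaling, trend, libraries, replicate block and thresholds. Median-of-ratios scaling used genes above 0 in all libraries.

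The members and lists were chosen with earlier results of these data known. Named are the members, Rac1, Cybc1, list and marker genes where a sentence needs them, the 3 genes most correlated with each member (mean TPM of at least 1), and genes on partner baits of the members. Csf2rb, Gtf2i and the genes that overlap a member were named after their values were seen. Nnt has 2 rows and was not counted, and a further listed gene is not reported here. Gene positions are from GENCODE M21 and promoters from RefSeq, for 3 of 5 members.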

Additional observations from a re-analysis of the deposited data

How the results depend on the processing

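The rises of Cybb and Ncf1 at 1h, 12h and 48h, and of Cyba at 12h and 48h, kept their direction and their call in all 24 fits made for each (pseudocount, filter, scaling, trend, libraries in the fit, replicate block, each library left out, and the 4 of replicate 3 left out together), and so did the fall of Ncf1 after 12h. All 10 subunit ratios passed under every alternative tried for them except with replicates 1 and 2 only, where 9 did, and where Ncf4 at 1h against 0h turned to 0.13, Rac2 to Rac1 (48h minus 0h) was -1.46 (exact permutation p = 0.0762) and 0 members were higher from 12h to 48h. What changed most was scaling between libraries. Under median-of-ratios scaling, quantile normalization and rescaling without the 20 most abundant genes, Cyba at 1h against 0h turned to -0.44, -0.27 and -0.27, Cyba at 48h against 12h to 0.44, 0.30 and 0.25, Rac2 at 12h against 1h to 0.30, 0.29 and 0.26, and Rac2 at 48h against 12h to 0.21, 0.089 and 0.018; none of the first 3 had passed the test. Leaving out 1 library at a time put Ncf4 at 1h between -0.27 and 0.049 (the latter without 1h replicate 3) and Rac2 at 12h against 1h between -0.12 and 0.075, above 0 without 1h replicate 1 or 3 or 12h replicate 2. A log2 fold change over 2 left 2 members higher at 12h and 1 from 1h to 12h. From 12h to 48h no member was higher without the trend (0), or with a log2 fold change over 1 or 2 (0 each), and the count ranged from 0 to 1 when a library was left out. TPM keep no depth, so how far depth limits low genes was not tested, and the cause of the changes was not tested.

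Median-of-ratios scaling moved these list counts: at 1h to 0 higher for family genes, 2 higher and 5 lower for upstream genes, 1 and 2 for factors, 1 higher for NADPH supply, and 3 and 4 for peroxide handling; at 12h to 9 and 1 for upstream genes, 3 and 2 for factors, 4 lower for NADPH supply and 4 lower for handling; at 48h to 3 higher for family, 10 higher for upstream genes, 1 lower for factors and 2 higher for handling.

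Replicate numbers are shared between time points, but libraries with the same number correlated above 0.1 in 7 of 18 pairs and only 7 of 12 libraries correlated best with their own number, so the rule for paired samples was not met. The pairs above 0.1 were 5 of 6 for replicate 3, 2 of 6 for replicate 1 and 0 of 6 for replicate 2, and what the libraries of replicate 3 share is not given in the labels. With the number as a replicate block, 0 family genes were higher at 48h and 2 upstream genes were lower at 1h, and Rac2 was lower at 12h (adjusted p = 0.0429).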
